A study of Obba rivulosa with 6 samples.

Results

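Among the gene models of the white-rot fungus Obba rivulosa, 66 fell steadily as the fungus lived on spruce wood, lower at week 4 than at week 2 and lower again at week 8. They are 66 of the 12424 gene models listed in at least 1 library, or 0.531%, and 66 of the 7713 models with an FPKM of 10 or more in both week 2 libraries. FPKM is a read count scaled by the length of the gene model and by the size of the library, so levels of different models can be compared on it. With 1 added to every FPKM, a member had its lower week 2 value at least 1.5 times its higher week 4 value. Its lower week 4 value was in turn at least 1.5 times its higher week 8 value, and its FPKM was 10 or more in both week 2 libraries. The members were therefore chosen by these measured values, in all 6 libraries. That each of them fell in both intervals is the rule itself and no result, so the sizes of the falls are described without tests.

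White-rot fungi are basidiomycetes that break down lignin together with cellulose and hemicellulose by secreting oxidative and hydrolytic enzymes, and they take up the sugars that are released. Wood is poor in nitrogen, and most of its sugars become available only as the cell walls are taken apart. The series followed gene expression through such a culture, with an interest in enzymes acting on plant cell walls and in central carbon metabolism.

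All samples were of the monokaryon 3 A-2, which carries a single type of nucleus; the labels give FBCC1032 as the dikaryotic strain. The mycelium was pre-grown in liquid low-nitrogen-asparagine-succinate medium for 7 days, blended, and put on 2 g of Norway spruce sticks over 1% water agar at 28 °C in the dark. Groups were 2, 4 and 8 weeks of growth with 2 libraries each, and no culture without wood was part of the design. The labels do not say whether the libraries of a week came from separate cultures, so the spread within a week may be partly technical. The libraries held 4908235 to 5154075 expected counts, which are the reads assigned to gene models by estimation.

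The files give each gene model an identifier of the JGI set Obbri1 and no product name or genome position. The members are therefore called by the protein ID inside that identifier, and no function is given for any of them. In RNA from whole mycelium, less RNA of a model in each hypha and fewer hyphae that express it cannot be told apart.

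These few models made up a large part of the early transcriptome. In the week 2 libraries they held 10.4% and 11.4% of all reads. In the week 4 libraries they held 2.68% and 2.08%, and in the week 8 libraries 0.748% and 0.773%. The means were 10.9% ± 0.71, 2.38% ± 0.42 and 0.760% ± 0.018 in order of time (SD, n = 2). The share was thus 4.59 times lower at week 4 than at week 2, and 14.4 times lower at week 8, in the direction that the rule fixes. The 95% Wilson intervals of these shares were at most 0.0552 percentage points wide, and cover counting error only. A fractional count in any library marked a model as split with similar models, however small the fraction. How many reads were split is not known from it. Without the 7 members so marked, the shares were 8.83%, 1.88% and 0.624%.

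**Figure D1:**
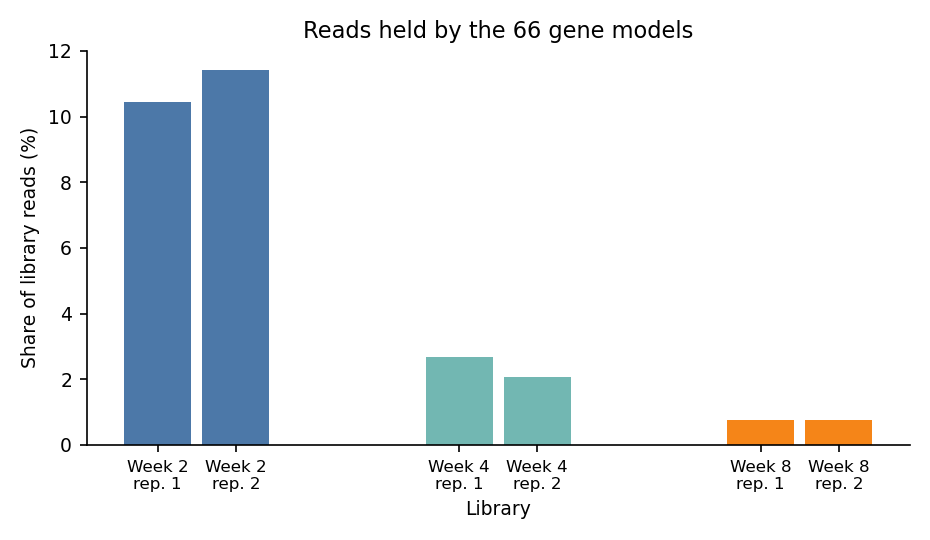
Share of each library's reads (%, vertical axis) assigned to the 66 gene models, 1 bar per library, coloured by week. The week 2 bars stand at 10.4% and 11.4%, and both week 8 bars are below 1%.

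The weight of the members at week 2 came from high levels and not from their number. The rule asked for 10 FPKM, but 60 of the 66 stood at a mean of 100 FPKM or more at week 2 and 25 at 1000 FPKM or more. Those 25 were 35.2% of the 71 models that reached such a level. Of the 1288 models between 100 and 1000 FPKM, 35 were members (2.72%), and of the 6354 models between 10 and 100 FPKM, 6 were (0.0944%). Counting error and the added 1 weigh more on low models, and their part in these shares was not tested.

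In the order of levels, 6 and 7 of the 10 most abundant models of the week 2 libraries were members. At week 4 the 10 most abundant models of each library held 2 members, and at week 8 none. Among the 100 most abundant models there were 25 and 28 members in the week 2 libraries, 8 and 4 at week 4, and 2 and 2 at week 8. By week 8 the middle of the group lay near that of all gene models. It lay below that of the models of 10 FPKM or more in both week 2 libraries. Those models had medians of 42.6 and 43.5 FPKM in the week 8 libraries, and 35.7 and 35.3 at week 2. The members' median was 23.1 and 33.3 FPKM in the week 8 libraries, beside 23.7 and 23.9 FPKM for all gene models, against 445 and 513 FPKM beside 18.4 and 18.3 FPKM at week 2. At week 8, 34 members in replicate 1 and 25 in replicate 2 were below the median of their library.

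**Figure D2:**
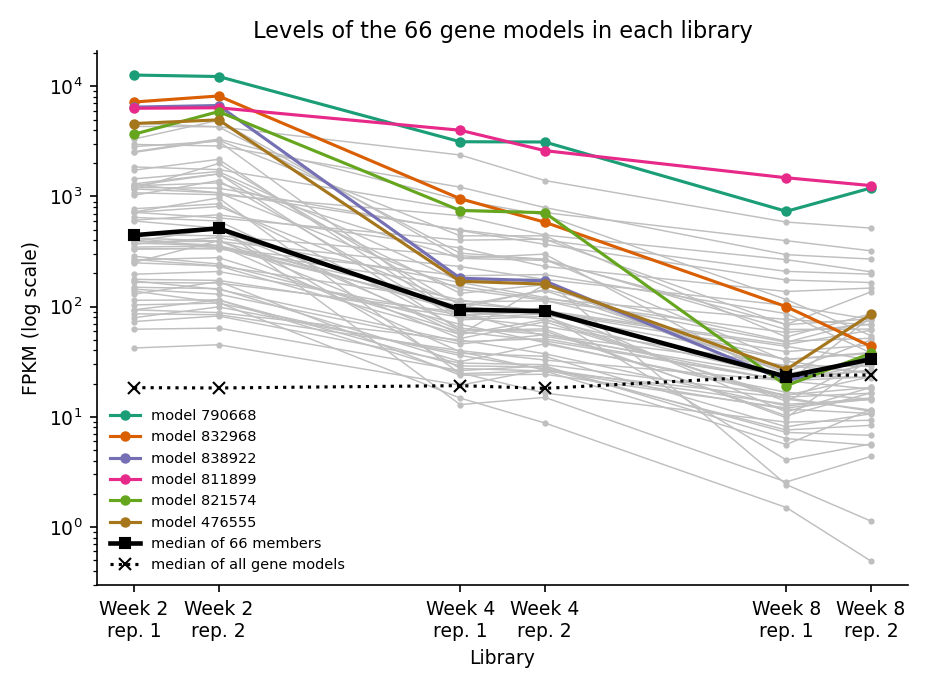
FPKM of the 66 gene models in each of the 6 libraries on a log axis, 1 line per model; coloured lines are the 6 models highest at week 2, squares the median of the 66, and crosses the median of all gene models. The median of the 66 lies far above that of all models at week 2 and beside it at week 8.

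The most abundant gene model at week 2 was a member. Model 790668 stood at 12666 and 12282 FPKM in the week 2 libraries, then at 3141 and 3125, and finally at 733 and 1194. It ranked at number 1 in both week 2 libraries and remained at rank 83 and 43 at week 8, so it fell and was still among the abundant models. Its edgeR log2 fold change was -2.02 ± 0.27 over the first interval and -2.0 ± 0.27 over the second (SE).

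Model 811899 kept the highest level of all members at the end. Its FPKM was 6324 and 6391 in the first pair of libraries, 3995 and 2608 in the middle pair, and 1479 and 1256 in the last. Its log2 fold change was -0.99 ± 0.25 in the first interval and -1.56 ± 0.25 in the second (SE), among the shallower courses. The libraries of week 4 lay further apart than those of week 2.

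The other models at the top of week 2 ended far below the most abundant ones, at ranks from 1505 to 6937 in the week 8 libraries. Model 832968 went from 7209 and 8176 FPKM through 955 and 584 to 99.9 and 43.5 at week 8. Model 838922 stood at 6477 and 6700 FPKM early, fell to 181 and 171, and ended with 21.1 and 34.8. Model 838922 did 66.6% of its log2 fall before week 4. It is among the members marked as split, and its level may be less certain, since how many of its reads were split is not known. Model 821574 was at 3676 and 5901 FPKM, then 746 and 713, then 19.2 and 37.7. Model 476555 was at 4597 and 4964 FPKM, then 170 and 160, then 26.9 and 85.1. On the log2 scale model 821574 lost more in the second interval and model 476555 more in the first. The 6 models described here held 4.01% and 4.28% of the reads at week 2, against 0.236% and 0.262% at week 8.

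The size of the whole fall varied widely among the members. With 1 added to the mean FPKM, the ratio of week 2 to week 8 ran from 3.90 to 564, with a median of 11.2. It was at least 10 in 36 members and at least 100 in 7. The steepest course was that of model 891790, which went from 1444 and 1686 FPKM through 169 and 180 to 2.42 and 1.13 at week 8, where it had 19 and 9 counts. Next came model 851361, at 1735 and 2174 FPKM, then 79.1 and 86.0, then 4.05 and 5.67. Both ended far down the order of the gene models, at ranks between 9564 and 11417. Model 851361 is among those marked as split, by a count of 14054.97 in week 2 replicate 2 beside whole counts elsewhere. Model 837450, the shortest of the members with 261 bases, went from 2839 and 3178 FPKM through 80.9 and 97.9 to 11.1 and 18.5.

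The smallest ratios of week 2 to week 8 were those of models 856606 and 864105. The abundant model 811899 was not far off, at 4.65. Model 856606 went from 268 and 234 FPKM through 111 and 113 to 58.3 and 69.2, a ratio of 3.90 from week 2 to week 8. Model 864105 was at 86.1 and 84.4 FPKM, then 39.8 and 32.8, then 21.2 and 17.8, a ratio of 4.2. Few members came close to silence. A mean of 10 FPKM or more was kept at week 8 by 56 of the 66, and of 100 FPKM or more by 10. A value below 1 FPKM occurred once, in model 834319, which was at 138 and 109 FPKM at week 2 and at 1.5 and 0.49 at week 8 with 3 counts and 1 count, and which was named after its values had been seen.

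The middle of the members was spread more widely in the first interval, while the single largest fall came in the second. The ratio of week 2 to week 4 had a median of 3.82 and quartiles of 2.42 and 9.54, and ran from 1.59 to 37.2. The ratio of week 4 to week 8 had a median of 2.83 and quartiles of 2.30 and 4.04, and ran from 1.72 to 63.2. The first ratio was 10 or more in 14 members and the second in 4. The total fall on the log2(FPKM + 1) scale was larger before week 4 in 47 members and after it in 19. The size of that split depended on the scaling. FPKM was also rescaled by TMM factors, which align the bulk of the models between libraries. On that scale 40 members fell more before week 4, and by the TMM-scaled fold changes of edgeR 37 did. At the median, 57.0% of a member's log2 fall was done by week 4, and 52.7% after TMM rescaling. The second interval is longer than the first, and none of these falls was divided by the length of its interval. They are therefore not rates of fall per week.

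**Figure D3:**
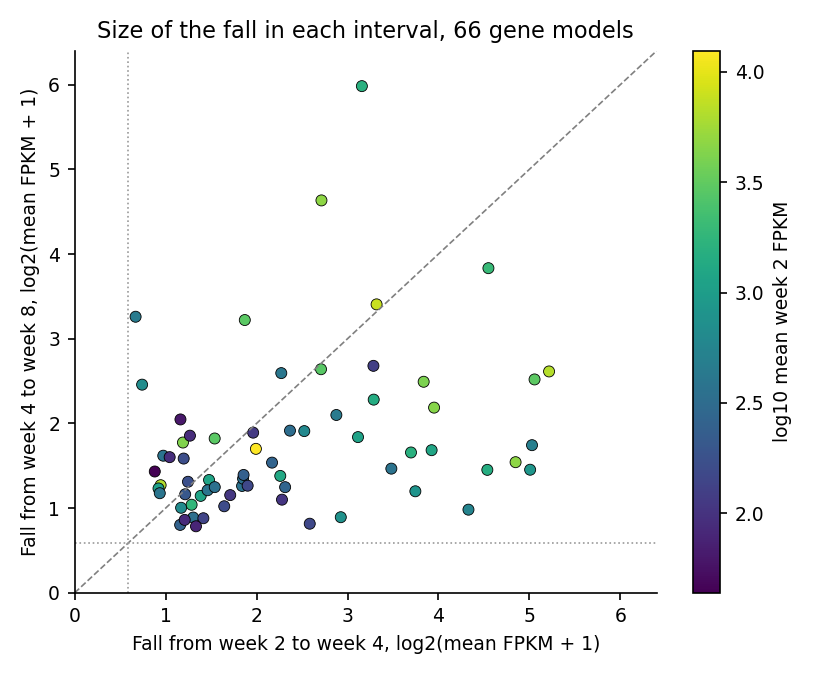
Fall of each of the 66 gene models from week 2 to week 4 (horizontal axis) and from week 4 to week 8 (vertical axis), as log2 ratios of mean FPKM + 1, coloured by the log10 of the mean week 2 FPKM. Dotted lines mark the 1.5-fold bound and the dashed line equal falls; 47 models lie below the dashed line.

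At the early end of this range, model 741536 did 81.5% of its log2 fall before week 4. It went from 599 and 515 FPKM through 27.4 and 26.1 to 14.9 and 11.2. Model 753209 did 77.5%, going from 724 and 969 FPKM through 24.6 and 26.1 to 5.6 and 11.6. Model 809173 did 76.6%, going from 716 and 812 FPKM through 107 and 92.1 to 45.3 and 61.1. From week 4 to week 8 these models fell by 1.98, 2.74 and 1.86 times, in the same order.

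At the late end, model 311493 did 17.1% of its fall before week 4. It was at 450 and 440 FPKM, then still at 290 and 269, and only later at 32.1 and 24.5, and it is among the members with split reads. Model 793550 did 23.2%, going from 718 and 640 FPKM through 401 and 410 to 68.5 and 77.5. Model 891790, described above, did 34.6%. Their log2 fold changes in the first interval were -0.70 ± 0.17 for model 311493 and -0.77 ± 0.17 for model 793550, against -3.60 ± 0.20 and -2.77 ± 0.18 in the second (SE, edgeR).

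Members with a higher level at week 2 tended to fall further, though not uniformly. The median ratio of week 2 to week 8 was 40.9 for the 25 members of 1000 FPKM or more at week 2, 9.51 for the 35 between 100 and 1000 FPKM, and 5.62 for the 6 below. Spearman's rho between the week 2 level and the first fall was 0.44 over the 66 members, and between the week 2 level and the second fall 0.45. The week 2 level enters both the first fall and the ratio of week 2 to week 8. The added 1 also limits how large a ratio a member with a low week 2 level can reach. The rule used the same values, and all members share the same 6 libraries, so these are descriptions. Between the members' levels at weeks 2 and 4 rho was 0.76, between weeks 4 and 8 it was 0.87, and between weeks 2 and 8 it was 0.53.

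The abundant members were set beside the other 46 models of 1000 FPKM or more at week 2. Medians over the 25 members were 2878, 287 and 62.3 FPKM at weeks 2, 4 and 8, and over the 46 others 1331, 977 and 838 FPKM. Of these others, 20 were still at 1000 FPKM or more at week 8, as was 1 of the 25 members. Among the others, 18 met the 1.5-fold bound in the first interval alone, 8 in the second alone and 20 in neither. Week 2 abundance was thus followed by several courses, and the members are those that the rule took from them.

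In the edgeR fit over all 10889 tested models, all 66 members passed the expression filter and were lower at an adjusted p below 0.05 in each comparison. Over all tested models 17.7% were called lower at week 4 against week 2, 20.0% at week 8 against week 4 and 13.7% at week 8 against week 2. Since the rule used these comparisons, nothing is read from the members' counts. The members' median log2 fold change was -1.99, -1.86 and -3.89 in the same order, beside 0.00, 0.01 and 0.05 over all tested models. With total counts only as the scaling, the median of all models moved to 0.31 for week 8 against week 4 and to 0.37 for week 8 against week 2, and the members' medians were then -1.56 and -3.57.

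Agreement between the libraries of a week differed with the week. The members' replicates were apart by a median log2(FPKM + 1) difference of 0.13, 0.26 and 0.31 at weeks 2, 4 and 8. For all models of 10 FPKM or more at week 2 the same medians were 0.10, 0.27 and 0.19. The libraries were 2-fold or more apart for none of the members at week 2, for 1 at week 4 and for 7 at week 8, which is 10.6% of members beside 0.811% of the other models of 10 FPKM or more at week 2.

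The week 8 difference ran mostly in one direction among members that had fallen far by week 4. Of the 14 members with a first ratio of 10 or more, 12 were higher in week 8 replicate 2 than in replicate 1, and the median ratio of replicate 2 to replicate 1 over the 14 was 1.62. Of the other 52 members 28 were higher there, and the median ratio over them was 1.07. The same 14 members also leaned to replicate 2 at week 2, where 11 of them were higher in it, with a median log2 difference of 0.22. At week 4, 8 of them were. Of the 7 members that were 2-fold or more apart at week 8, 4 were higher in replicate 2 and 3 in replicate 1. Model 731297 stood at 20.1 and 80.4 FPKM in the week 8 libraries after 3326 and 4917 at week 2, and model 773003 at 9.80 and 34.0 after 1302 and 1605. In the opposite direction stood model 741536, at 14.9 and 11.2. The bound of 10 and both of the first examples were chosen after the values had been seen.

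The same difference appeared outside the members, in models for which the rule was not met. Of the 50 other models of 10 FPKM or more at week 2 that fell at least 10-fold by week 4, 44 were higher in week 8 replicate 2 (88.0%), with a median log2 difference of 0.51. Of the 7597 others, 4210 were (55.4%). Over all 7647 of these models Spearman's rho between the first fall and the week 8 difference was 0.44, and over the 66 members it was 0.50. The correlation runs across gene models of the same 6 libraries, which are not independent, and is a description of these libraries. The first fall and the week 8 difference share no library. The 66 members as a group held nearly the same share of reads in both week 8 libraries, as given above.

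**Figure D4:**
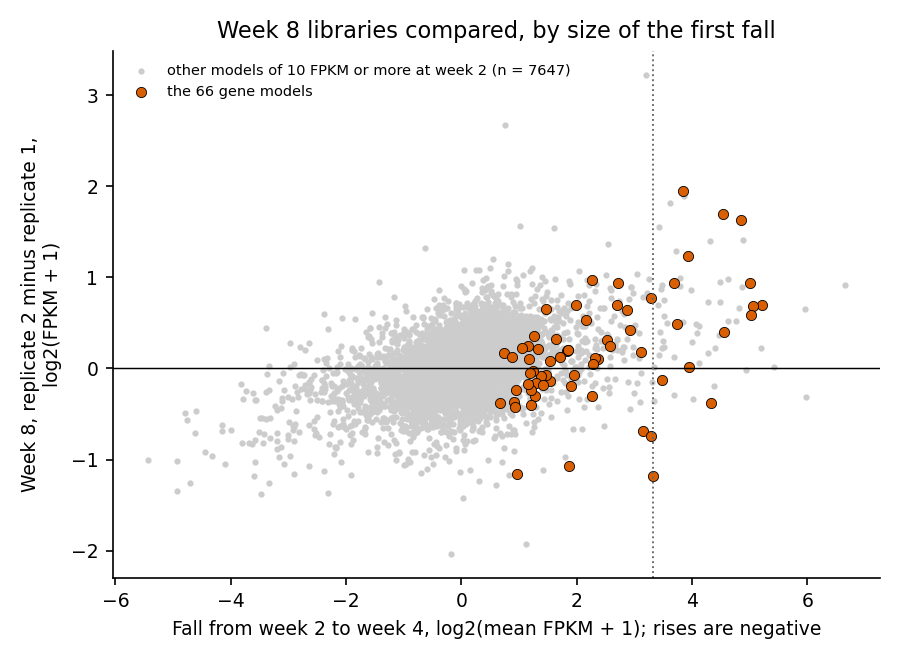
Difference between the week 8 libraries (replicate 2 minus replicate 1, log2(FPKM + 1), vertical axis) against the fall from week 2 to week 4 (log2 of mean FPKM + 1, horizontal axis) for the 66 gene models (orange) and 7647 other models (grey). Right of the dotted line, a 10-fold fall, 12 of 14 members and 44 of 50 other models lie above 0.

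The length of the gene models entered the rule only through the scaling of FPKM. Members had a median length of 1208 bases (range 261 to 2791), against 1454 bases for all models of 10 FPKM or more at week 2 (150 to 13701). Members under 1000 bases were 31.8% of the 66, beside 26.3% of those models. Among models of 1000 FPKM or more at week 2, the median was 1037 bases for members and 1249 for the others. Between 100 and 1000 FPKM, where 35 members lay, it was 1287 bases for members and 1261 for all models of that level. Between 10 and 100 FPKM it was 1255.5 bases for the 6 members and 1502.5 for all models. The shorter median of the members was thus not seen at every level. Reads split with similar models affected 10.6% of the members and 9.02% of the models of 10 FPKM or more at week 2.

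The boundary of the group was not sharp. Just inside it, model 809173 had a second ratio of 1.501 between its lowest week 4 and highest week 8 value, and model 311493 a first ratio of 1.52. Just outside, model 834559 had a second ratio of 1.496, and went from 596 and 611 FPKM through 32.1 and 28.3 to 16.4 and 18.6. Model 485577 had a second ratio of 1.492 and went from 18.1 and 16.6 FPKM through 9.15 and 6.52 to 3.63 and 4.04. Of the 904 models that met the first bound and the level at week 2, the 66 members were 7.30%. Of all 7713 models with that level, 546 met the second bound, whether or not they met the first. This is a share close to the 7.30%, so nothing is read from that percentage about the members. With the rule applied to the replicate 1 libraries alone, 170 models met it, and with the replicate 2 libraries alone 134. The 89 models common to both were 52.4% and 66.4% of these.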

How the data were processed

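Messenger RNA of 6 samples was sequenced, and 1 table per library was deposited. The submitters' processing notes list the tools BWA, Bowtie and RSEM, and the column names match RSEM output for genes, per the file headers. For tool versions, settings and the genome build, the sources used here give nothing. The deposited expected counts are the authors' estimates, without normalization. The FPKM values were scaled by the authors for gene model length and library size. Model length in bases is deposited beside them.

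A model without a row in a library was taken as 0. The rule was applied to FPKM + 1 as deposited. Expected counts were rounded and fitted in edgeR 4.0.16 (R 4.3.3), with its quasi-likelihood test (TMM, filterByExpr with a minimum count of 10, robust, a mean per week, all 6 libraries, Benjamini-Hochberg over 10889 models). Standard errors were derived from the F statistic. The fit was tested on simulated counts for 10889 models. Of 100 models changed 4-fold it recovered 93 (weeks 4 and 2), 99 (weeks 8 and 4) and 97 (weeks 8 and 2). Of 100 changed 2-fold it recovered 77, 69 and 72, and there were 5, 7 and 8 false calls. The simulation gave every model the spread of the fitted trend and changed few models, so these rates need not hold in the data.

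The members, lists and tests were chosen with earlier results of these data known. Named are the 6 members highest at week 2, the 4 with the largest and the 2 with the smallest whole fall, the 3 that did most and the 3 that did least of it by week 4, and the 2 models nearest the threshold on either side; others are marked. The 26 gene lists by product words could not be filled, because the files pair no names with the identifiers, and are not analysed here. Alternatives were limma 3.58.1 on log2 FPKM with 1 or 0.1 added, DESeq2 1.42.0, other scalings and filters, and leaving out each library.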

Additional observations from a re-analysis of the deposited data

How the results depend on the processing

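The number of members, 66, became 31 with a threshold of 2, 118 with FPKM rescaled by TMM factors, 170 and 134 in the libraries of a single replicate number, and 71 to 107 when 1 library was left out, with 107 without week 4 replicate 2. A rule that reads fewer libraries is met more easily by construction. The members' median log2 fold change for week 8 against week 4 was -1.56 with total counts only and -1.54, -1.61 and -1.54 with limma on log2(FPKM + 1), log2(FPKM + 0.1) and log2(FPKM + 1) without the filter; for week 8 against week 2 it was -3.57, -3.48, -3.55 and -3.48. None of these settings scales beyond library size and, for FPKM, model length. With RLE size factors and with DESeq2, which do not use TMM either, the medians stayed near the main ones. They were -1.89 and -1.88 for week 8 against week 4, and -3.92 with both for week 8 against week 2. Leaving out 1 library gave medians of -2.07 to -1.99, -1.996 to -1.71 and -3.99 to -3.80 for weeks 4 against 2, 8 against 4 and 8 against 2, with 60 to 66, 64 to 66 and 66 members called lower; with only the 4 libraries compared, 62 were for week 8 against week 4. Over these fits the share of the log2 fall done by week 4 was 53.8% to 58.6%. In 42 to 52 members the larger fall came before week 4. The members' share of reads at weeks 2, 4 and 8 was 8.83%, 1.88% and 0.624% without split-read models, and 9.85% and 0.677% at weeks 2 and 8 without the most abundant member. As a share of summed FPKM it was 13.2% and 0.833% at weeks 2 and 8. The alternatives on these shares and on the interval of the larger fall were chosen after seeing the data.

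Replicate numbers are not stated to pair libraries, and the deviations of same-numbered libraries correlated by 0.01, -0.14 and -0.07 between weeks 2 and 4, 4 and 8, and 2 and 8. With a replicate block all 66 members stayed lower in each comparison, with medians of -1.997, -1.90 and -3.90. Of 855 alternatives on 54 log2 fold changes of named models, none changed sign and 6 lost their call: for week 4 against week 2, model 811899 and model 311493 without each week 2 library and model 793550 without week 2 replicate 1; and model 476555 for week 8 against week 4 when only the 4 libraries compared were fitted. Depth limits the members with few counts at week 8. The count of all models called lower, 1927, 2176 and 1496 in the order above, became 936 (first) and 949 (last) without week 2 replicate 1, 1040 and 991 without week 2 replicate 2, and 1002 (second) without week 8 replicate 2. With total counts only the second and last were 1351 and 993, and with limma 1270 to 1317 and 962 to 979.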
